A study of Mus musculus with 8 samples.

Results

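The genes described here are 40 genes of the junctions that join epithelial cells: 7 cadherins, Epcam, 14 claudins, 6 other tight junction genes, 9 desmosome genes and 3 catenins. They were taken from a list of symbols chosen with earlier results of these data known. A gene was a member when a probe on the array carried its RefSeq accession. The shares of members set against all named genes below are therefore descriptions and not tests of an independent set. All 40 were on the array, out of 20145 genes that could be named, with 50 probes between them. The label fits the known roles of some genes less well. Cdh13 is anchored to the membrane by lipid and lacks the cytoplasmic tail of a classical cadherin. Cdh11 is best known from mesenchymal cells, Cdh2 from neural and mesenchymal cells, and Cldn11 from myelin and Sertoli cells.

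The arrays measured 8 tumours grown from 4T1 cells, a mammary carcinoma line from a BALB/c mouse. Infection came before injection and lasted 24 h at 50 infectious units a cell (MOI), either with empty adenovirus (control, n = 4) or with Adenoviral-PRH (n = 4), so both groups had met a virus. They were placed in fat pad no. 3 of female BALB/C mice aged 6 to 8 weeks, and tumours were taken on day 22. Each group holds mouse numbers 1, 2, 3 and 5. The model is 1 cell line, infected before it was grafted, in hosts that supply the blood vessels, stroma and immune cells of the tumour. The series' texts differ on the material: one speaks of RNA from whole tumours and the other of endothelial isolates, and this is not settled here.

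PRH is the protein of Hhex, a homeodomain transcription factor, and its transcript was the first check of the labels. The single Hhex probe read -0.54, -0.33, -0.69 and -0.78 on control arrays 1, 2, 3 and 5, and -1.71, -1.46, -1.79 and -1.72 on the PRH arrays with the same numbers. These are log2 levels relative to the 75th percentile of each array, the scale used below unless another is named. Hhex fell by 1.09 (SE 0.149, limma, adjusted p = 0.00686), against the direction the label gives, so the second group is called PRH-labelled throughout. The probe's position relative to the virus insert is not known here, and a mouse probe may not read a transgene of other sequence.

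The level of a junction gene in such RNA mixes all the cells of the sample, and fewer cells of a type cannot be told apart from less RNA per cell. Of 14 epithelial markers, 13 were well above background on all 8 arrays, as were 11 of 12 endothelial markers. The keratins Krt8 and Krt18 differed by -0.44 (adjusted p = 0.0793) and 0.52 (adjusted p = 0.0274). Of the 14, 8 differences were above 0 and 6 below, and Krt18 was the single call, which held in 1 of 5 scalings (0.06 with median centring) and in 3 of 8 fits that each drop 1 array. The endothelial genes Cdh5 and Pecam1 differed by -0.07 (adjusted p = 0.904) and 0.46 (adjusted p = 0.350). Control arrays were brighter at their 75th percentile, with 1094 ± 131 against 722.4 ± 41.2 in PRH-labelled arrays (group means ± SD of 4 arrays; p = 0.0286 in an exact permutation test, the smallest that 70 unpaired arrangements allow, while the 16 arrangements within mouse numbers cannot give less than 0.125). All arrays shared 1 slide and 1 scan, but control arrays filled slide column 2 and PRH-labelled arrays column 1, so column and group cannot be told apart. Nothing in the labels says how the tumours were drawn, so p-values measure only the spread between these samples.

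Epithelial sheets are held together by a set of junctions on their sides. In adherens junctions, classical cadherins bind across the gap between cells and are tied to actin by beta- and alpha-catenin, while p120-catenin holds them at the surface. In tight junctions, claudins and occludin close the space between cells and are held by the ZO scaffold proteins. In desmosomes, desmogleins and desmocollins bind across the gap and plakoglobin, plakophilins and desmoplakin link them to keratin filaments. Loss of E-cadherin, often with gain of N-cadherin, is a known mark of epithelial-mesenchymal transition, while 4T1 cells are known as a metastatic line that keeps E-cadherin.

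Promoters are shown for 4 members: Cldn11, which passed the test below, and Crb3, Cldn4 and Epcam, the members whose E-box lies nearest the start. Each is the 250 bases before the gene's start, 5′ to 3′ on the gene's strand, from RefSeq on GRCm38.p6. A RefSeq promoter was matched for 22 of the 40 members (33 starts). Capitals mark ATTAA or its other strand TTAAT in Cldn11, a homeodomain core, and CACCTG or its other strand CAGGTG in the others, the E-box bound by the Snail and Zeb repressors. The ATTAAT run in Cldn11 counts as a match on each strand.
Cldn11, chr3:31149670-31149919, plus strand: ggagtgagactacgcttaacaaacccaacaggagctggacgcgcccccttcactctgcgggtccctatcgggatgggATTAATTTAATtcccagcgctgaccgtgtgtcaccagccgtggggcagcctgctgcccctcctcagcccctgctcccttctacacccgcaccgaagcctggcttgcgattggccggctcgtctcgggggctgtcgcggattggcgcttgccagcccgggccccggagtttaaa
Crb3, chr17:57061951-57062200, plus strand: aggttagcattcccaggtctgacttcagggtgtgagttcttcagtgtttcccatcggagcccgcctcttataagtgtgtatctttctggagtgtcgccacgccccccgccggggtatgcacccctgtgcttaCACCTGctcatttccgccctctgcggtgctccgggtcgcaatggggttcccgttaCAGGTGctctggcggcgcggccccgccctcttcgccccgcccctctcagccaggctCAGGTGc
Cldn4, chr5:134946935-134947184, minus strand: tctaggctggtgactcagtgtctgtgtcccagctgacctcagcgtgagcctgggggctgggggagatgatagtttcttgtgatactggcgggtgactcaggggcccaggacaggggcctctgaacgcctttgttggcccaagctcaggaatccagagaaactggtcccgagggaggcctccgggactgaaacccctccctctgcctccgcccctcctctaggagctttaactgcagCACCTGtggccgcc
Epcam, chr17:87635729-87635978, plus strand: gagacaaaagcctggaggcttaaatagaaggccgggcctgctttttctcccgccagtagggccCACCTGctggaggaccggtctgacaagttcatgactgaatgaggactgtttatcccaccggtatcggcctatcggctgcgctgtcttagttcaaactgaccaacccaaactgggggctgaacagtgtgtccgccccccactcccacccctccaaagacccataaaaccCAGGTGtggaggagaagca
Cldn11 has 3 matches of ATTAA in this window, all in 1 unbroken run. Cldn10, which did not pass the test, also has 3 matches in the same window. Cldn1, Cldn7, Cldn12, Cldn18, Marveld2 and Tjp3 have 1 each. Crb3 has 3 E-boxes, the nearest 1 base before the start. The E-box of Cldn4 ends 8 bases before the start, and the nearer of 2 in Epcam ends 13 bases before it. ATTAA was in 10 of the 33 member promoters (30.3%) and in 24.9% of 32851 RefSeq promoters, and CACCTG was in 10 of 33 (30.3%) and in 17.2%. Where a gene has several starts, the most upstream is shown. A match is a description of the letters and not a measured site.

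The 40 genes did not move as a block. A gene was tested when at least 4 of 8 arrays read its probe well above background, which 36 members met, and it was called at a Benjamini-Hochberg adjusted p under 0.05 over all 34543 items tested. Of the 36, 4 rose on the PRH-labelled arrays, Cdh2, Cldn11, Dsg2 and Dsg3, and 2 fell, Cdh11 and Cdh17. Cdh17 and Dsg3 met the filter through the group where they read higher, and where all 8 arrays had to be well above background, 3 rose and 1 fell. The other 30 did not pass. These 6 calls are 16.7% of the members tested, below the 23.4% of all 16377 named genes tested (25.9% of all items). The shares of named genes called higher and lower were 10.6% and 12.9%, against 4 and 2 of 36 here. In 7 members the groups did not overlap, which held for 30.6% of named genes. The median difference was 0.23 over the 36 members and -0.02 over the named genes. With arrays centred on 7 spike-in probes none of the 36 passed, and the 6 had adjusted p from 0.126 to 0.347. The count of members with an unadjusted p under 0.05 was then 4, and 1 of all items passed (0.00289%). The count of 4 higher genes rests on small margins: it was 1 without control 2, PRH 1, PRH 2, PRH 3 or PRH 5, and 2 without control 3. The count of 2 lower genes was 5 without control 1 and 1 without control 2, control 5, PRH 1, PRH 2 or PRH 3. Over these fits the count of all items called also moved, from 5733 to 11467, against 8934 with every array.

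**Figure D1:**
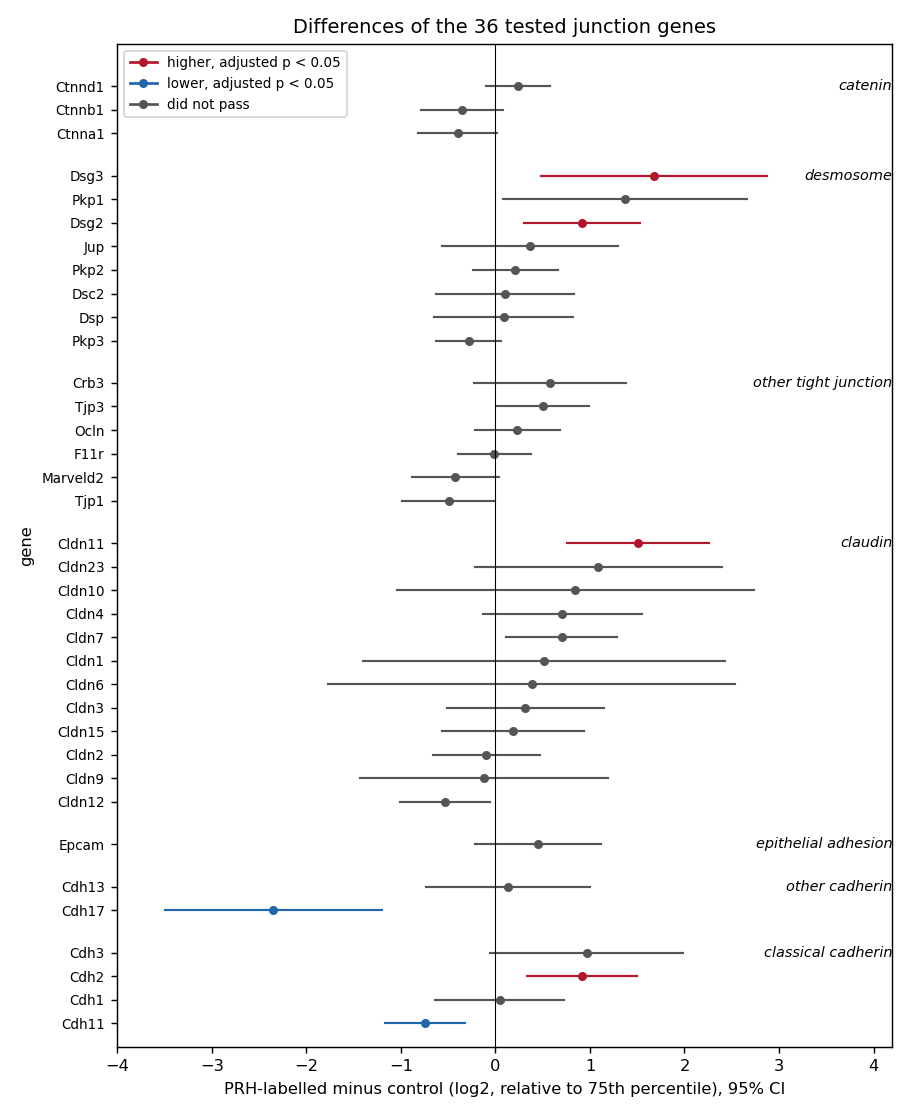
Difference in log2 level, PRH-labelled minus control, for the 36 tested members by gene class, each point with its 95% confidence interval from limma (n = 4 arrays a group). Red marks the 4 members that passed as higher, blue the 2 that passed as lower and grey the rest. Most intervals cross 0, and Cdh17 lies farthest below it at -2.35.

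Among the classical cadherins, N-cadherin and cadherin-11 changed in opposite directions and E-cadherin and P-cadherin did not pass. E-cadherin (Cdh1), the defining cadherin of epithelium, read 2.77, 3.18, 2.09 and 3.46 on control arrays 1, 2, 3 and 5 and 2.78, 2.92, 3.20 and 2.78 on PRH-labelled arrays 1, 2, 3 and 5. The PRH-labelled values lay within the control range, whose lowest was control 3. The difference was 0.04 (SE 0.295, 95% interval -0.64 to 0.73, adjusted p = 0.923), and without control 3 it was -0.22 (adjusted p = 0.488). An interval of this width leaves room for a change of either sign.

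N-cadherin (Cdh2), the cadherin of neural and mesenchymal cells, read -1.10, -1.64, -2.18 and -2.16 on the control arrays, in the same order, and -0.92, -0.90, -0.85 and -0.76 on the PRH-labelled ones. All PRH-labelled values lay above all control values and within a narrower range. Cdh2 rose 1.89-fold (log2 difference 0.91, SE 0.251, adjusted p = 0.0330), and its other probe also rose (1.39, SE 0.398, adjusted p = 0.0375). The call was lost with 4 other ways of scaling, at 0.45 (adjusted p = 0.176) with arrays centred on their median, 0.65 (0.0630) with quantile normalization, 0.41 (0.165) with normexp and quantile normalization, and 0.47 (0.156) in the authors' values. It held in 1 of the 8 fits that each drop 1 array (at most 0.0848, without control 5).

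Cadherin-11 (Cdh11), also called OB-cadherin and known from osteoblasts and fibroblasts, read -1.23, -0.76, -0.97 and -0.91 on the control arrays and -2.01, -1.76, -1.75 and -1.33 on the PRH-labelled ones. The groups did not overlap, though PRH 5 lay close to control 1. Cdh11 fell 1.68-fold (log2 difference -0.74, SE 0.183, adjusted p = 0.0228), and it fell under 5 ways of scaling but did not pass with spike-in centring (adjusted p = 0.243). Its other probe differed by -0.22 (SE 0.175, adjusted p = 0.371), the mean of the probes by -0.48 (adjusted p = 0.0771), and the call held in 3 of 8 fits without an array (adjusted p up to 0.0628 without control 2). The summed level of 10 fibroblast markers, in multiples of the 75th percentile, ran from 342 to 490 in control and from 346 to 430 in PRH-labelled arrays, a sum of which 3 genes made up 77.2% on average. Of the 10 markers 2 fell (12.9% of named genes did), 7 differences were below 0 and the median was -0.50. The part of these markers in the result was not tested. P-cadherin (Cdh3), of basal and myoepithelial cells, differed by 0.96 (SE 0.439, adjusted p = 0.148).

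The largest difference of any member was a fall in Cdh17, the liver-intestine cadherin, which is known from gut epithelium. Cdh17 read -4.64, -4.27, -3.11 and -4.52 on the control arrays and -5.76, -6.00, -7.64 and -6.54 on the PRH-labelled ones. It was well above background on all 4 control arrays and on none of the PRH-labelled ones, so only a bound can be given. On the 75th percentile scale, with the floor described below, Cdh17 was at least 3.54-fold lower in PRH-labelled arrays by group means (1.82 in log2). The measured log2 difference was -2.35 (SE 0.493, adjusted p = 0.0135), or -0.84 with normexp and -1.30 in the authors' values. Cdh17 met the filter for testing through its control arrays alone, so its calls under other settings add no support. With spike-in centring it did not pass (adjusted p = 0.126). Of 8 intestine markers, 3 were well above background on all arrays and Cdx2 and Slc26a3 on none, and none of the 4 tested passed. The list's summed level ran from 15.2 to 32.7 in control and from 24.3 to 28.2 in PRH-labelled arrays, but Gpa33 made up 94.6% of it on average.

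The other members without a classical tail did not pass or could not be tested. Cdh13, T-cadherin, known from vessels and as a receptor for adiponectin, differed by 0.13 (SE 0.373, adjusted p = 0.806), or by -0.22 without control 3, which at 0.47 was its lowest array. Cdh16, the kidney cadherin, was well above background on 1 control and 1 PRH-labelled array and was not tested. Its highest value, -2.97, was on PRH 3. The 7 kidney tubule markers summed to 0.759 to 1.29 in control and 1.18 to 3.02 in PRH-labelled arrays. Aqp2 made up 68.3% of this sum on average. Only 2 of the 7 were well above background on all arrays, and none of the 5 tested passed.

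**Figure D2:**
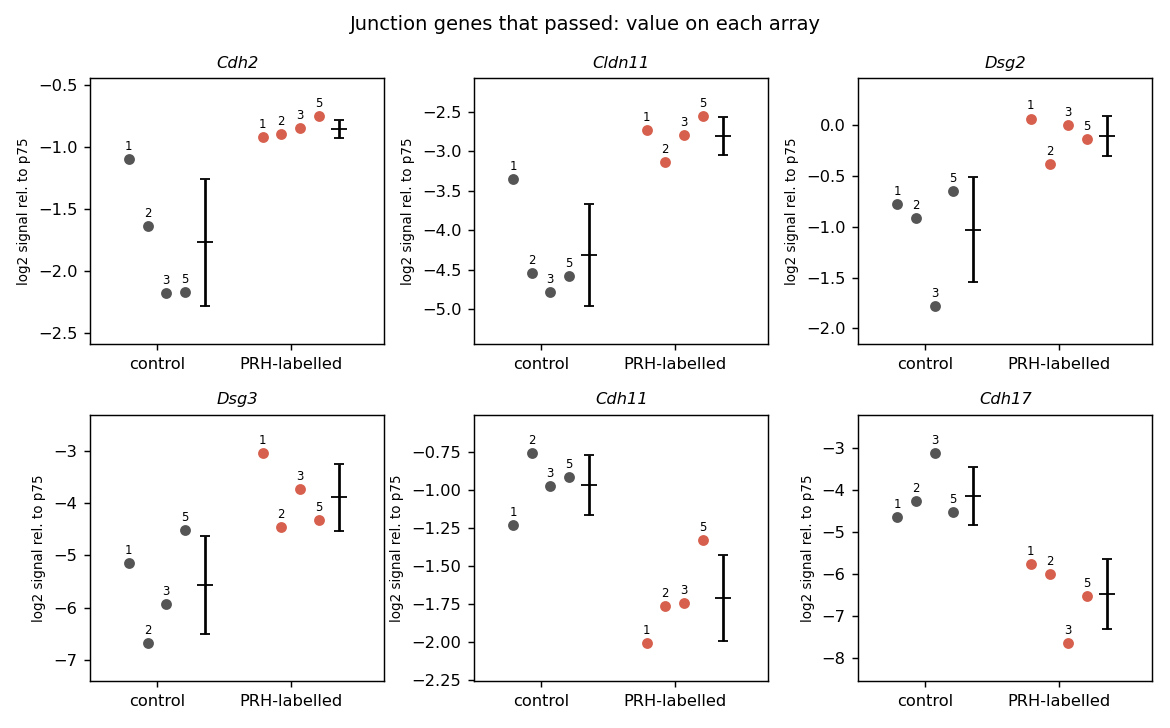
Log2 level of the 6 members that passed, relative to the 75th percentile of each array (p75), on each control and PRH-labelled array, with mouse numbers beside the points and the mean ± SD of each group (n = 4). Control and PRH-labelled points do not overlap in any of the 6 panels; Cdh17 on all PRH-labelled arrays was not well above background.

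Epcam, an epithelial adhesion molecule that is also known to stabilise claudin-7, read 3.36, 3.95, 2.85 and 4.07 on the control arrays and 3.85, 3.90, 4.32 and 3.97 on the PRH-labelled ones. The groups overlapped, with control 3 lowest and PRH 3 highest. The difference was 0.45 (SE 0.288, 95% interval -0.21 to 1.12, adjusted p = 0.280), and 0.22 without control 3. With arrays centred on their median it was -0.01.

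Of the 14 claudins, the strands of the tight junction, 12 were tested, 1 rose and none fell (10.6% and 12.9% of named genes). The claudin that rose was Cldn11, a tight junction protein best known from myelin and from the Sertoli cells of the testis. Its probe read -3.35, -4.55, -4.78 and -4.58 on the control arrays and -2.73, -3.14, -2.80 and -2.56 on the PRH-labelled ones. Control 1 stood above the other controls but below every PRH-labelled array. Cldn11 rose 2.85-fold (log2 difference 1.51, SE 0.324, adjusted p = 0.0145) and passed in all 8 fits that each drop 1 array (at most 0.0445, without control 5). It also passed with arrays centred on their median (1.04) and with quantile normalization (1.01), but not with normexp (0.40, adjusted p = 0.102) or in the authors' values (0.51, 0.0956). The 6 markers of Schwann cells and peripheral nerve summed to 5.48 to 7.12 in control and 4.46 to 6.20 in PRH-labelled arrays, and none passed. Mbp made up 55.8% of this sum on average, and 3 genes made up 89.4%. The part of such cells in the Cldn11 values was not tested.

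The claudins known from simple epithelia, Cldn3, Cldn4 and Cldn7, were bright on every array. Cldn7 read 4.02, 4.02, 3.21 and 4.15 on the control arrays and 4.17, 4.60, 4.88 and 4.54 on the PRH-labelled ones. The groups did not overlap, but PRH 1 and control 5 were nearly equal, and the difference of 0.70 (SE 0.253, adjusted p = 0.0801) did not pass. It did pass with normexp (0.77, adjusted p = 0.0457) and in the authors' values (0.77, 0.0488), and without control 3 it was 0.48 (0.115). Cldn4 and Cldn3 differed by 0.71 (SE 0.362, adjusted p = 0.192) and 0.32 (SE 0.358, adjusted p = 0.529), and without control 3 by 0.40 and -0.02. The second probe of Cldn4, also well above background on all arrays, differed by 0.29 (SE 0.282, adjusted p = 0.462). In each of these genes control 3 was the lowest of the 8 arrays and PRH 3 the highest.

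Cldn12, a claudin without the usual tail for binding ZO proteins, differed by -0.53 (SE 0.205, adjusted p = 0.0962). Control 1, at 1.15, lay with the PRH-labelled arrays (1.16 to 1.29) and the other controls at 1.88 to 1.97. Without control 1 the difference was -0.73 (adjusted p = 0.00287), but leaving out that control favours a fall. No fit of Cldn12 without any other array passed (adjusted p up to 0.213, without control 5). Cldn23 read 1.09 higher (SE 0.562) without passing in the unpaired fit (adjusted p = 0.194). On each mouse number the PRH-labelled array was above its control, from -0.88 against 0.02 in mouse 1 to -3.00 against -1.97 in mouse 2, and Cldn23 rose in the fit that blocks on mouse number (adjusted p = 0.0120).

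The pore-forming claudins Cldn2, Cldn10 and Cldn15 differed by -0.10, 0.85 and 0.19, with adjusted p from 0.462 to 0.782. Cldn10 was uneven among the controls, at -1.76, -1.45, -4.09 and -5.03. The other probe of Cldn2 had the opposite sign (0.19). Cldn1, of skin and many epithelia, and Cldn6, of embryonic epithelium, differed by 0.51 and 0.38 with SE of 0.825 and 0.926, and Cldn9 by -0.12 (SE 0.564). Their adjusted p ran from 0.661 to 0.888, and Cldn1 and Cldn6 changed sign with quantile normalization, normexp and the authors' values.

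Cldn18, of stomach and lung, and Cldn8, of kidney, were not tested. Cldn18 read -6.36, -7.63, -7.47 and -7.66 on the control arrays, none of them well above background, and -5.18, -6.65, -6.56 and -5.21 on the PRH-labelled arrays, of which 2 were. The groups overlapped, with PRH 2 and PRH 3 below control 1, so no fold is given. Cldn8 read -5.26, -7.40, -7.76 and -7.86 in control and -7.83, -7.55, -6.88 and -7.68 in PRH-labelled arrays and was well above background on 1 control array alone, likewise with no fold.

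None of the 6 other tight junction genes passed. Occludin (Ocln), a membrane protein of the strand, read -2.10, -1.75, -2.21 and -1.57 on the control arrays and -1.83, -1.85, -1.38 and -1.65 on the PRH-labelled ones. The groups overlapped, the difference was 0.23 (SE 0.194, adjusted p = 0.407), and its dimmer probe had the opposite sign (-0.60, SE 0.294, adjusted p = 0.172). ZO-1 (Tjp1), the scaffold under the strand, read 1.56, 2.27, 1.71 and 2.10 on the control arrays and 1.05, 1.59, 1.60 and 1.42 on the PRH-labelled ones, with control 1 just below the highest of these. Tjp1 differed by -0.50 (SE 0.213, adjusted p = 0.127) and passed only with arrays centred on their median (-0.96, adjusted p = 0.0313).

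Tricellulin (Marveld2), the protein of the corners where cells meet, differed by -0.42 (SE 0.197, adjusted p = 0.154), and the groups overlapped, with control 3 at -0.69 below PRH 3 at -0.63. It fell by 0.89 with median centring, by 0.47 with normexp and by 0.49 in the authors' values (adjusted p 0.0231, 0.0399 and 0.0487). ZO-3 (Tjp3) differed by 0.50 (SE 0.211, adjusted p = 0.119), the adhesion molecule JAM-A (F11r) by -0.01 (SE 0.167, adjusted p = 0.960) and the polarity protein Crb3 by 0.58 (SE 0.346, adjusted p = 0.256). The second probe of Crb3 had the opposite sign (-0.48, SE 0.431). The F11r interval, -0.40 to 0.37, was among the narrowest of the members.

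In the desmosome group, 2 of 8 tested genes, Dsg2 and Dsg3, rose and none fell. Of all named genes, 10.6% rose and 12.9% fell. Desmoglein-2 (Dsg2), the desmoglein of simple epithelia, read -0.77, -0.91, -1.78 and -0.64 on the control arrays and 0.07, -0.38, 0.01 and -0.13 on the PRH-labelled ones. All PRH-labelled values lay above all control values. Dsg2 rose 1.89-fold (log2 difference 0.92, SE 0.265, adjusted p = 0.0389) and did so in 4 of 5 ways of scaling, not with median centring (0.45, adjusted p = 0.219). Its dimmer probe differed by 0.44 (SE 0.319, adjusted p = 0.335), the mean of the probes by 0.68 (adjusted p = 0.119), and the call held in 3 of 8 fits without an array (adjusted p up to 0.0960 without PRH 1).

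Desmoglein-3 (Dsg3), of stratified epithelium and the target of antibodies in pemphigus vulgaris, read -5.15, -6.68, -5.93 and -4.52 on the control arrays and -3.05, -4.46, -3.74 and -4.32 on the PRH-labelled ones. It was well above background on 2 control arrays and on all 4 PRH-labelled ones, and the groups were nearly in contact at -4.52 and -4.46. Dsg3 rose 3.20-fold (log2 difference 1.68, SE 0.513, adjusted p = 0.0476) with the 75th percentile scaling alone. The other scalings gave 0.33 to 1.21 with adjusted p from 0.0843 to 0.197, and 1 of 8 fits without an array passed (up to 0.112 without PRH 1). Its second probe stayed at background on all 8 arrays. With the named genes ranked by brightness and cut into 10 equal bins, the median difference was 0.79 in the dimmest bin, which holds Dsg3, and 0.46 in that of Cldn11. The bins of Cdh2 and Dsg2 had medians of -0.06 and -0.25.

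Desmocollin-3 (Dsc3), also of stratified epithelium, was not well above background on any control array, at -5.51, -6.94, -7.59 and -5.92. The PRH-labelled arrays read -4.02, -5.44, -5.32 and -5.77, and 3 of these were well above background. The groups overlapped, with PRH 5 below control 1, and no fold or test is given. Plakophilin-1 (Pkp1), the plakophilin of stratified epithelium, read 0.41, -0.26, -0.87 and 1.48 on the control arrays and 2.13, 1.55, 2.02 and 0.55 on the PRH-labelled ones. The group order was broken by mouse 5, whose control was high and whose PRH-labelled array was low, and the difference of 1.37 (SE 0.556, adjusted p = 0.111) passed only without control 5 (1.80, 0.0461).

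Of the 9 keratinocyte markers matched, 1, Krt14, rose (10.6% of named genes did), all 9 differences were above 0, and their median was 1.98. They summed to 17.9 to 55.8 in control and 42.0 to 139 in PRH-labelled arrays, with 7 of them well above background on all arrays and none at background on all. Krt14 made up 54.2% of this sum on average, and 3 genes made up 87.9%. By array the sums were 23.6, 24.2, 17.9 and 55.8 in control and 139, 78.1, 94.8 and 42.0 in PRH-labelled arrays, so mouse 5 again had the highest control and the lowest PRH-labelled value. Their part in the Dsg3, Dsc3 and Pkp1 values was not tested.

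The plaque proteins shared by all desmosomes did not pass. Desmoplakin (Dsp), which binds keratin, read 0.75, 1.54, 0.34 and 1.67 on the control arrays and 1.21, 1.11, 1.42 and 0.90 on the PRH-labelled ones, all within the control range. It differed by 0.09 (SE 0.315, 95% interval -0.65 to 0.82, adjusted p = 0.850). Plakoglobin (Jup), found in desmosomes and adherens junctions, read -0.51, -0.46, -2.14 and -0.70 on the control arrays and -0.58, -0.89, -0.08 and -0.79 on the PRH-labelled ones. Apart from control 3 the groups lay over each other, and the difference was 0.37 (SE 0.400, adjusted p = 0.513) with control 3 and -0.03 (0.942) without it. Pkp2, Pkp3 and Dsc2 differed by 0.21, -0.28 and 0.10, with adjusted p of 0.446, 0.202 and 0.820, and Pkp3 fell by 0.75 with median centring (adjusted p = 0.0284).

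None of the 3 catenins passed. Alpha-catenin (Ctnna1), the link to actin, read 5.12, 5.68, 5.43 and 5.85 on the control arrays and 4.98, 5.11, 5.22 and 5.18 on the PRH-labelled ones. Beta-catenin (Ctnnb1), which also carries Wnt signals, read 3.98, 4.76, 4.27 and 4.60 in control and 3.97, 4.13, 4.03 and 4.04 in PRH-labelled arrays. In both genes control 1 was the one control that lay among the PRH-labelled arrays. The differences were -0.40 (SE 0.181, adjusted p = 0.146) and -0.36 (SE 0.188, adjusted p = 0.203). Without control 1 they were -0.53 (adjusted p = 0.0289) and -0.50 (0.0411), but leaving out the control nearest the PRH-labelled arrays favours a fall. No fit without any other array passed. Adjusted p there reached 0.303 for Ctnna1 (without control 5) and 0.394 for Ctnnb1 (without control 2). With median centring of all arrays both passed, at -0.87 (0.0300) and -0.82 (0.0445). p120-catenin (Ctnnd1), which holds cadherins at the surface, read 3.98, 4.30, 3.89 and 4.22 in control and 4.19, 4.43, 4.47 and 4.27 in PRH-labelled arrays. The groups overlapped, and Ctnnd1 differed by 0.24 (SE 0.147, adjusted p = 0.262).

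**Figure D3:**
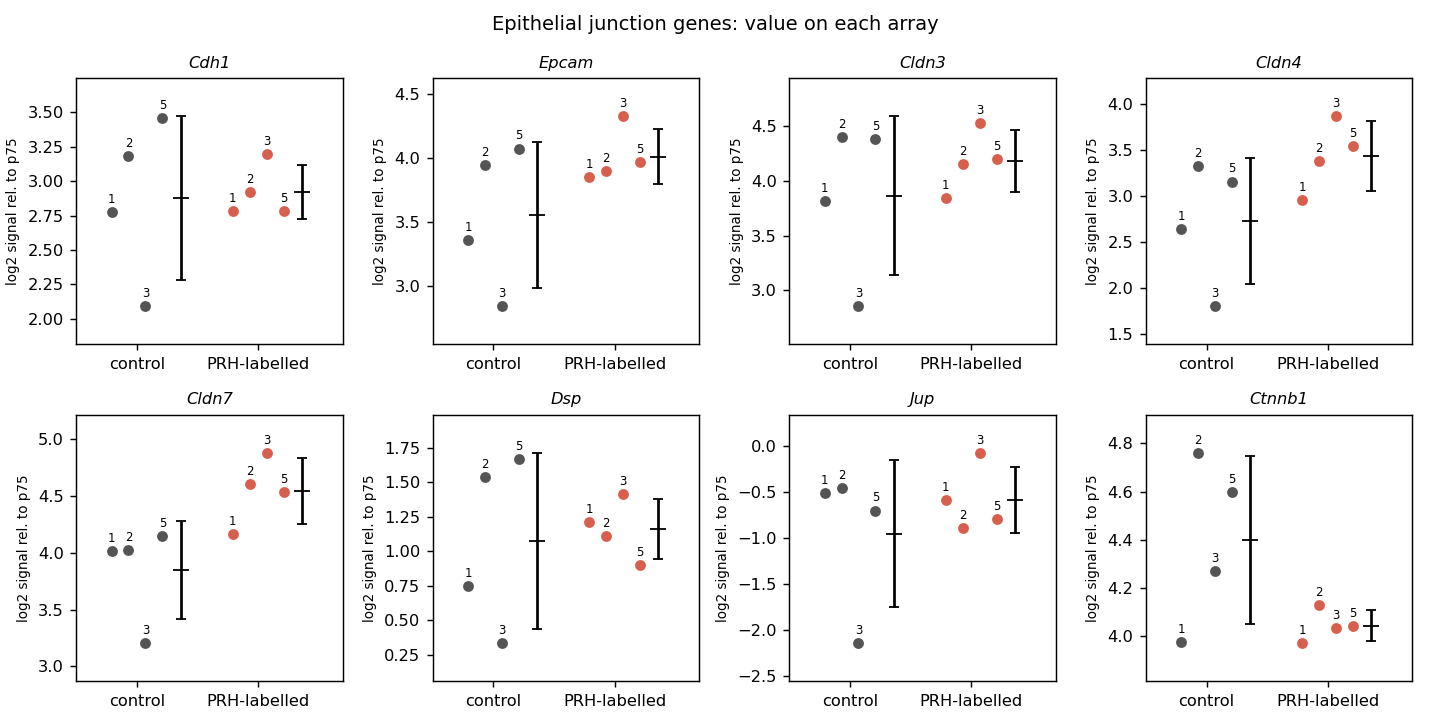
Log2 level of 8 epithelial junction members, relative to the 75th percentile of each array (p75), on each control and PRH-labelled array, with mouse numbers beside the points and the mean ± SD of each group (n = 4). Control 3 was the lowest array for Cdh1, Epcam, Cldn3, Cldn4, Cldn7, Dsp and Jup, and in Ctnnb1 control 1 lay with the PRH-labelled arrays. The panels have separate axes.

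The members varied more among the control tumours than among the PRH-labelled ones. The SD was larger in control for 32 of the 36 tested members (88.9%), against 69.8% of the named genes. The median SD was 0.56 in control and 0.24 in PRH-labelled arrays over the members, and 0.32 and 0.19 over the named genes. Control 3 was the lowest control for 23 of the 36 members (63.9%, against 26.7% of named genes). It was the lowest of all 8 arrays for 22 members, and for 20.6% of named genes. PRH 3 was the highest PRH-labelled array for 20 (55.6%, against 27.8%).

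Control 3 also differed in marker genes of other cell types. Its endothelial sum was 13.4, the lowest of all arrays, where the other controls had 23.5 to 43.6 and the PRH-labelled arrays 29.2 to 34.7. Egfl7 made up 45.5% of the endothelial sum on average. The fibroblast sum of control 3, 490, was the highest of the 8. Control 3 was the lowest of the 8 arrays for 7 of the 14 epithelial markers, 7 of the 9 keratinocyte markers and 11 of the 12 endothelial ones. Among named genes it was the lowest of the 8 for 20.6% and the highest for 23.7%. The epithelial sum, of which Krt18 made up 61.1% on average, ran from 313 to 398 in control, with control 3 at 331, and from 400 to 478 in PRH-labelled arrays. Leukocyte markers ran from 122 to 181 in control and 120 to 160 in PRH-labelled arrays, and adipocyte markers from 3.26 to 96.9 and 8.12 to 12.2, the 96.9 being control 1. Fabp4 made up 70.5% of the adipocyte sum on average, and 1 of the 6 adipocyte markers was well above background on all arrays. The part of these cell types in the members' spread was not tested. Without control 3, the differences of 10 of the 36 members changed sign, none of them called with it.

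The scaling of the arrays set how many members were called and in which direction. The median difference over all items was 0.29 with the 75th percentile and -0.18 with median centring, a shift that moves every gene alike. With median centring, 1 member was called higher and 8 lower, against 4.18% and 32.5% of named genes. With quantile normalization the counts were 2 and 2 (8.55% and 18.0%), with normexp 2 and 3 (8.07% and 18.5%), and in the authors' values 2 and 3 (8.07% and 17.3%). The mouse number as a block gave 5 and 2 (15.0% and 12.4%). Over these 5 scalings, Cdh11 and Cdh17 were called the same way each time, where 14.2% of named genes were, and 22 of 36 members kept their sign. Of the pair, Cdh17 was tested only through its control arrays. Centring on 7 spike-in probes ended every call, as given above. The median of the members lay above that of the named genes under each: 0.23 against -0.02, -0.23 against -0.49, 0.14 against -0.10, 0.10 against -0.08 and 0.07 against -0.08, in the order 75th percentile, median, quantile, normexp and authors' values.

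**Figure D4:**
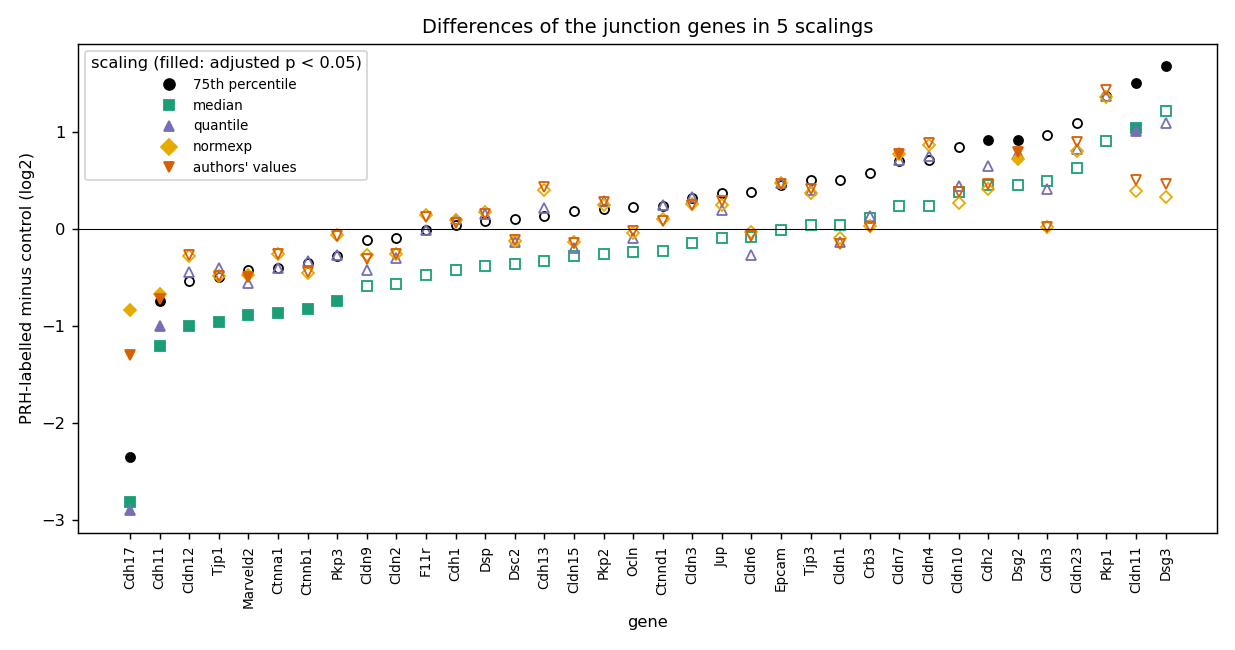
Log2 difference, PRH-labelled minus control, of each tested member under 5 ways of scaling the same 8 arrays, with filled symbols where the member passed. Cdh11 and Cdh17 are filled below 0 under the 5 scalings drawn, while Cdh2 and Dsg3 are filled under the 75th percentile scaling alone.

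Other genes of the same junctions were read from a second list of 66, also chosen with earlier results known, of which 51 were tested. In it 4 rose and 2 fell (11.8%, against 23.4% of all named genes), with a median difference of 0.32. The groups did not overlap in 9 of the 51, which held for 30.6% of named genes. The 4 that rose were Cdh6 (1.39, SE 0.221, adjusted p = 0.00740), a cadherin of kidney and neural crest, Cdh18 (1.31, SE 0.235, adjusted p = 0.00906), a cadherin of the nervous system, Marveld3 (1.12, SE 0.212, adjusted p = 0.0102), a relative of occludin, and the polarity gene Pard6a (0.52, SE 0.134, adjusted p = 0.0276). Cdh6 and Cdh18 rose under all 5 scalings, Marveld3 under 4 and Pard6a under 2, and no gene of the list passed with spike-in centring. The 2 that fell were Iqgap1 (-0.71, SE 0.134, adjusted p = 0.0101), an actin-binding scaffold found at cadherin contacts, and Nectin3 (-1.02, SE 0.306, adjusted p = 0.0450), an adhesion molecule of adherens junctions. Both fell under all 5 scalings, but in Nectin3 the groups overlapped and the fall did not pass with the mouse number as a block (adjusted p = 0.0800). With that block 10 genes of the list rose, where 15.0% of named genes did.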

How the data were processed

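The scanner files hold 1 Cy3 array per tumour. Per the file headers, Agilent Feature Extraction 10.7.3.1 produced the deposited spot intensities, on a design placed on mm9, while the submitters' processing notes name version 9.1. The authors' own normalized values are linear intensities (array medians 123.83 to 125.9, Spearman correlation with the scanner values 0.9888 to 0.9954), and their scale is known but their background correction and centring are not.

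From these, the log2 processed signal was taken relative to each array's 75th percentile over 55681 non-control probes, spots of a probe were averaged, and probes well above background on at least 4 of 8 arrays (39463) were tested. Probes were named through RefSeq accessions (25869 of 26392 curated mRNA accessions matched). A gene is represented by its brightest tested probe. The array share of probes well above background was 64.17% to 73.9%, no spot was saturated, and 4 arrays a group limit the precision. The 2 groups were tested in R 4.3.3 by limma 3.58.1 (lmFit, eBayes, two-sided, Benjamini-Hochberg over 34543 items). On simulated data with as many items, 21% of 100 genes changed by 1 on the log2 scale and 66% of 100 changed by 2 were recovered, with 1 false call. Far fewer items were changed there than were called in these data, and the noise was drawn independently for each array. Those rates therefore do not carry over to the test used here.

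For the Cdh17 bound, the bright group's mean is set against a floor in the dim group, averaged over arrays. On each array the floor is the lowest signal of any probe well above background or the dim probe's own, whichever is higher. Alternatives were 4 other scalings, the 7 spike-in probes, 2 filters on dim probes, the mean of a gene's probes, a replicate block and each array left out. The files used hold no mean foreground signal, so normexp (offset 50) used the median one. Same-numbered arrays deviated together (correlation 0.203, 0.436, 0.665 and 0.274 for numbers 1, 2, 3 and 5). Of the 8 arrays, 6 correlated best with the array of their own number in the other group. Each number is also a slide row, so a pairing by mouse and a shared slide row cannot be told apart. The reported calls come from the unpaired fit, with the replicate block as an alternative. The members, the second list and the marker lists were chosen with earlier results of these data known. Named with every array are members that passed, members at background on all arrays of 1 group, and 10 core genes; the per-array values of Cldn7, Pkp1 and Cldn10 were added after they were seen. Of the marker genes, 2 were not matched.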

Additional observations from a re-analysis of the deposited data

Results flagged for a closer look

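In 5 of 80 sets of 4 arrays, each a junction gene in 1 group, the highest or lowest array lay apart from the other 3 by Dixon's criterion, where chance gives about 4. All 5 were control arrays and all were control 1 or control 3. Cldn7 read 3.21 on control 3 and 4.02 to 4.15 on the other controls, and Jup read -2.14 on control 3 and -0.70 to -0.46 on the others. Cldn11 read -3.35 on control 1, above -4.78 to -4.55 on the others. Cldn12 read 1.15 on control 1, below 1.88 to 1.97. Cldn18 read -6.36 on control 1 and -7.66 to -7.47 on the others, all of these not well above background.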

How the results depend on the processing

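Members called higher, 4 as reported, were 1 with median centring, 2 with quantile normalization, normexp, the authors' values or no filter on dim probes, and 0 with spike-in centring. Members called lower, 2 as reported, were 8 with median centring, 0 with spike-in centring, and 1 with the filter on all 8 arrays or the mean of a gene's probes. In the second list, 4 higher became 2 with median centring, 0 with spike-in centring and 10 with the replicate block, and 2 lower became 10 with median centring, 6 with quantile normalization or normexp, 7 in the authors' values, 0 with spike-in centring and 1 without a filter. The shares of named genes called with median centring, quantile normalization, normexp, the authors' values and the block are given above. Spike-in centring called 1 of all items, against 8934, although 6997 items and 4 members had an unadjusted p under 0.05. Leaving out each array gave 1 to 4 higher and 1 to 5 lower members, 3 to 5 higher and 1 to 7 lower genes of the second list, and 5733 to 11467 items. The replicate block, which pairs same-numbered arrays, gave 5 higher and 2 lower members and changed the call of no member but Cldn23.

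The differences that changed sign all belonged to members that had not passed. With median centring they were Cdh1 -0.42, Cdh13 -0.33, Epcam -0.012, Cldn3 -0.15, Cldn6 -0.082, Cldn15 -0.28, Ocln -0.24, Jup -0.097, Dsp -0.38, Pkp2 -0.26, Dsc2 -0.36 and Ctnnd1 -0.22. With quantile normalization they were Cldn1 -0.14, Cldn6 -0.26, Cldn15 -0.19, Ocln -0.096 and Dsc2 -0.14. With normexp they were Cldn1 -0.092, Cldn6 -0.029, Cldn15 -0.13, Ocln -0.041, F11r 0.14 and Dsc2 -0.12. In the authors' values they were Cldn1 -0.15, Cldn6 -0.068, Cldn15 -0.14, Ocln -0.024, F11r 0.13 and Dsc2 -0.11. With spike-in centring they were Cdh1 -0.085, Dsp -0.042 and Dsc2 -0.025, and with the mean of probes Cldn2 0.045 and Ocln -0.19. With each array left out in turn, the differences of 12 members crossed 0: they ran from -0.22 to 0.24 for Cdh1, -0.22 to 0.44 for Cdh13, -0.11 to 1.01 for Cldn1, -0.29 to 0.11 for Cldn2, -0.018 to 0.50 for Cldn3, -0.36 to 0.87 for Cldn6, -0.64 to 0.16 for Cldn9, -0.055 to 0.48 for Cldn15, -0.090 to 0.11 for F11r, -0.026 to 0.53 for Jup, -0.16 to 0.29 for Dsp and -0.14 to 0.25 for Dsc2. The cause was not tested. Genes near background (Dsg3, Dsc3, Cdh17, Cldn18) are limited by signal over background.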
